A study of Mus musculus with 18 samples.

Results

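The 10 genes described here are the core of the circadian clock as listed by gene symbol: Arntl, Clock, Per1, Per2, Per3, Cry1, Cry2, Ciart, Dbp and Tef. They were taken from the 54532 genes of a count table by name, and the 10 were among the 14317 genes tested, Ciart at low counts that were highest in the uninduced clones. The cells were 10T1/2 mouse mesenchymal cells, entered in the labels as CH310T1/2 mesenchymal stem cells. The 3 genotypes, WT and 2 FOXS1 KO clones, were each left uninduced or stimulated, first with TGF-β1 (1 nM, 12 h) and then with DMII (48 h), giving 6 groups of 3 libraries. DMII is adipogenic medium, a mix of DMEM and Ham's medium with insulin, indomethacin, dexamethasone and 3-isobutyl-1-methylxanthine. All cells had been grown in DMEM with FBS, and the study's methods give overnight serum starvation before TGF-β1. Whether the uninduced cells were starved as well is not stated. The KO lines were made with CRISPR-Cas9 and paired guides, and each grew from a single colony, so KO and clone cannot be told apart within a line. No library had TGF-β1 alone or DMII alone, so the response described here belongs to the whole sequence of treatments, any change of serum and medium included. Whether the 3 libraries of a group came from separate cultures is not stated, and p-values then measure the spread between these libraries, which may be technical.

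The clock of a cell is a transcriptional loop. ARNTL (also called BMAL1) pairs with CLOCK, binds E-boxes and switches on the Period and Cryptochrome genes, whose proteins return to the nucleus and inhibit the ARNTL:CLOCK pair. A side loop of REV-ERB repressors and ROR activators acts on Arntl through ROR elements (ROREs), so that Arntl RNA usually peaks when Dbp, Per3 and Ciart RNA are low. DBP and TEF are PAR bZIP activators that bind D-boxes and carry the rhythm to other genes, and CIART is a further repressor of ARNTL:CLOCK. Glucocorticoids and cAMP signals act directly on Per1 and Per2, and dexamethasone is used to synchronise cultured fibroblasts. The labels give no clock time of harvest and each group was collected once, so that phase, amplitude and the share of cells in step cannot be told apart in these levels, nor can fewer cells expressing a gene and less RNA per cell. Nor do they say when the uninduced cells were harvested relative to the stimulated ones. Treatment, time in culture and time of harvest therefore cannot be told apart in the responses below.

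The libraries held 15576685 to 42005596 counts. Foxs1 itself had 2.23 ± 0.886 and 2.51 ± 0.641 CPM (counts scaled to library size; mean ± SD, n = 3) in uninduced and stimulated WT, and 22.6 to 54.4 CPM as group means in the KO clones. A gene total does not see whether the coding exon is disrupted, so it does not check the KO label, and "clone 1" and "clone 2" stand for the libraries so labelled. The 5 fibroblast markers summed to 26300 to 63000 CPM per library, but Thy1 had 0.616 and 0.342 CPM in uninduced and stimulated clone 2 against 49.0 to 184 CPM in the other groups. Endothelial markers summed to at most 1.63 CPM and epithelial markers to at most 3.41 CPM, and Lep and Ptprc had no counts.

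The proximal promoters of the clock genes were searched for elements of this loop. A match to any of the motifs lay in 7 of the 9 genes that had sequence, and the share of all promoters with any match was not computed. The 4 shown were picked among the genes with a match, and Tef, Cry2 and Dbp, which also moved, are not shown. RefSeq (GRCm38.p6) gave upstream sequence for 9 of the 10 genes, all but Per2, over 14 annotated starts. The 250 bases before each start were searched on both strands for the E-box (CACGTG), the E'-box (CACGTT), the D-box (TTANGTAA), the RORE core (TNGGTCA), the cAMP element (TGACGTCA) and the glucocorticoid receptor core (ACANNNTGT), none of which holds another. Capitals mark every match in the runs below, each written 5′ to 3′ on the strand of the gene.
Ciart, chr3:95882229-95882478, minus strand, with 3 E-boxes: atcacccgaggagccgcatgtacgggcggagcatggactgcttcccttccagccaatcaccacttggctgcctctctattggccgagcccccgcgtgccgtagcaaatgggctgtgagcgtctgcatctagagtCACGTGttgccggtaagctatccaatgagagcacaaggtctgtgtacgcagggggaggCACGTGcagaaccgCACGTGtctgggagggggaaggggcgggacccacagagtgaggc
Per3, chr4:151044666-151044915, minus strand, with 2 D-boxes and 1 RORE core: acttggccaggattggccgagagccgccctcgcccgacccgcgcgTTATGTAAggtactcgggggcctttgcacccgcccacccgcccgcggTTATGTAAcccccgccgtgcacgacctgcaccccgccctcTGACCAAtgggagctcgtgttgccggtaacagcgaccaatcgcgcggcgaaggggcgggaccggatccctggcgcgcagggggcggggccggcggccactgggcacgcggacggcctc
Arntl, chr7:113207215-113207464, plus strand, with 2 RORE cores: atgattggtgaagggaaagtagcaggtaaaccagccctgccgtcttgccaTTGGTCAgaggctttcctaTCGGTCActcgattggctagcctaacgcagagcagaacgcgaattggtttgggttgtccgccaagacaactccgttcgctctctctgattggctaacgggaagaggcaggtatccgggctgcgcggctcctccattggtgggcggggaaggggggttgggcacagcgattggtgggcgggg
Cry1, chr10:85185055-85185304, minus strand, with an E'-box and an E-box: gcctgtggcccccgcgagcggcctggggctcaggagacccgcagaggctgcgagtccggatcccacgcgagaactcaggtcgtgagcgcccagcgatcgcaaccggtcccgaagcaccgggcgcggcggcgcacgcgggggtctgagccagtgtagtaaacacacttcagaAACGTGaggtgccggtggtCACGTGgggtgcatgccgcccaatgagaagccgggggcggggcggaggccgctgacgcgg

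An E-box was found in 4 of the 9 genes (Per1, Cry1, Tef and Ciart), against 6.02% of the 32851 promoters of all genes. Ciart held 3 of them, which 0.0609% of promoters did. A D-box was found in Per3 only, in 2 copies, against 2.06% of promoters with at least 1 and 0.183% with at least 2. RORE cores lay upstream of Per3, Cry2, Arntl and the second start of Tef, against 9.19% of promoters, and the pair upstream of Arntl is a feature of 0.557% of promoters. An E'-box lay upstream of Cry1 and Cry2, against 3.85%. No match to any of the 6 motifs lay in this window of Clock or Dbp, and no cAMP element (1.55% of promoters) or glucocorticoid receptor core (5.84%) in that of any of the 9 genes. The shares count each promoter once, whereas a gene counts here if any of its starts matched, so genes with several starts had more chances. These are matches of letters and no measure of binding.

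**Figure D1:**
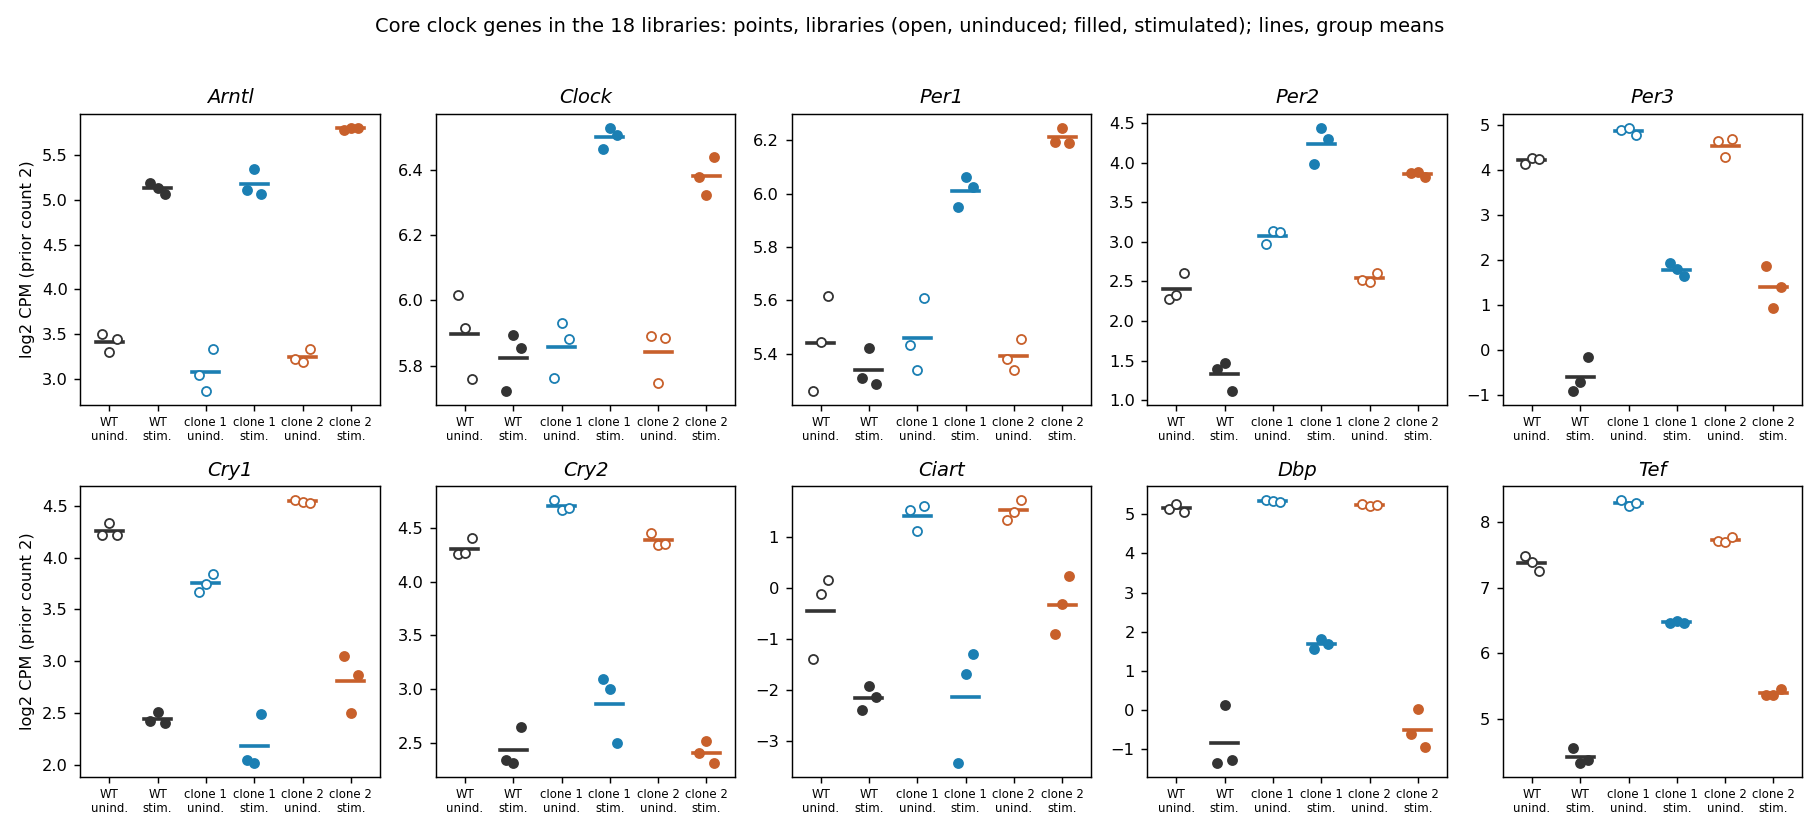
Levels of the 10 genes in each of the 18 libraries, as log2 CPM with a prior count of 2 (vertical axes differ between panels), by genotype and treatment (horizontal axis); open points are uninduced and filled points stimulated libraries, and lines are group means of 3. Dbp, Per3, Tef, Cry1, Cry2 and Ciart lie lower and Arntl higher after stimulation in all 3 genotypes, whereas Per2 lies lower in stimulated WT and higher in the stimulated clones.

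In uninduced WT cells the output gene Tef was the most abundant of the 10 per length, at 21.2 CPM per kb of gene model. Dbp followed at 11.9, Per1 at 7.73, Cry1 at 5.69, Clock at 4.35 and Cry2 at 3.12 CPM per kb. Per3 at 1.94, Arntl at 1.41 and Per2 at 0.892 CPM per kb lay lower, and Ciart was lowest at 0.318 CPM per kb. After stimulation the order in WT was led by Per1 at 7.17 CPM per kb, then Arntl at 4.65 and Clock at 4.12, while Dbp stood at 0.178 and Per3 at 0.0614 CPM per kb.

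Arntl was higher and most of the other genes were lower in stimulated than in uninduced cells in all 3 genotypes. In WT, 1 of the 10 genes rose (Arntl) and 7 fell (Per2, Per3, Cry1, Cry2, Ciart, Dbp and Tef) at an adjusted p under 0.05 and a change of more than 1 on the log2 scale, the thresholds used throughout, where 6.25% of all tested genes rose and 13.6% fell. With the WT libraries fitted on their own Ciart did not reach the count filter, and 7 of the other 9 genes passed. In clone 1, 2 rose (Arntl and Per2) and 6 fell (Per3, Cry1, Cry2, Ciart, Dbp and Tef), against 5.95% and 10.7% of all genes. Clone 2 gave the same genes in the same directions, 2 higher and 6 lower, against 6.46% and 11.2%. Ciart had its highest counts in the uninduced clones, the high side of both clone responses, and few counts elsewhere. Its fall in each clone is therefore a description and supports nothing. The median log2 fold change of the 10 genes was -1.85 in WT, -1.70 in clone 1 and -1.81 in clone 2, beside medians of -0.04, -0.02 and -0.02 over all tested genes. The 3 responses rest on separate libraries, though the spread used in their tests was estimated over all 6 groups together. All p-values are from the edgeR quasi-likelihood test with Benjamini-Hochberg adjustment over all tested genes.

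**Figure D2:**
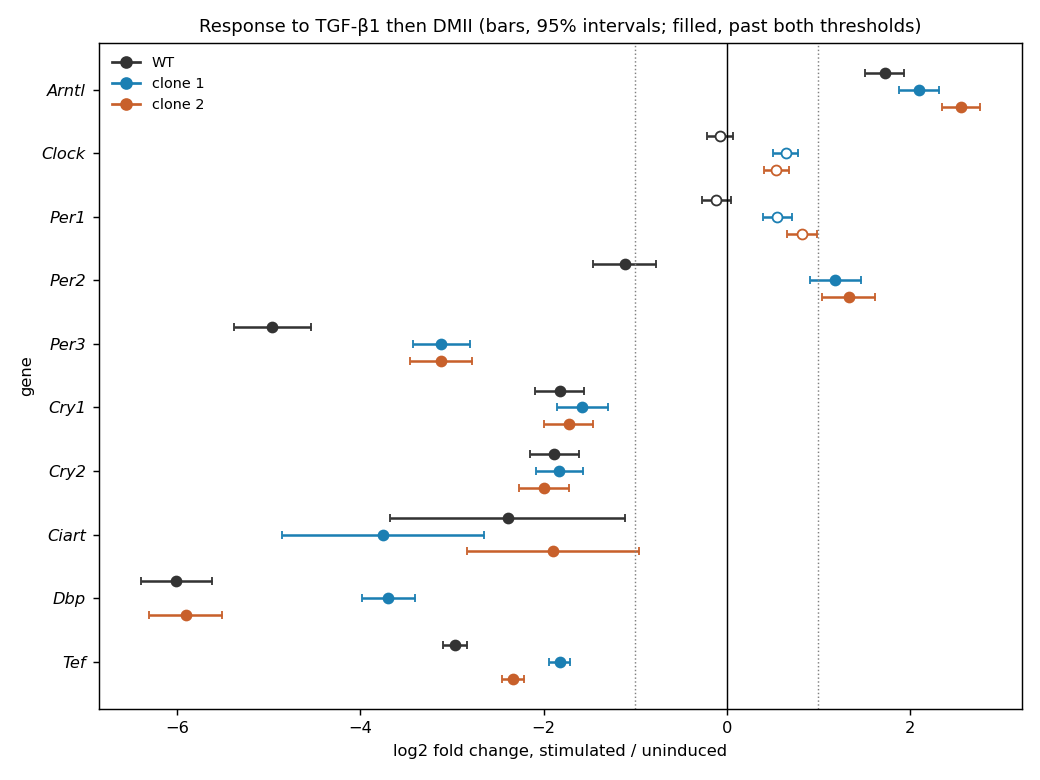
Log2 fold change of each gene (rows) on stimulation in WT and in both clones (horizontal axis), with 95% intervals; filled points pass both thresholds and dotted lines mark 1 and -1 on the log2 scale. The fall of Dbp was -6.01 in WT and -3.69 in clone 1, and Per2 is the gene whose points lie on both sides of 0 past the thresholds.

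Arntl, the DNA-binding partner of CLOCK and the gene whose loss stops the clock, was the member that rose everywhere. It was at 11.2, 9.74 and 10.8 CPM in uninduced WT and at 36.5, 34.9 and 33.5 CPM in stimulated WT. In clone 1 it went from 8.14, 7.18 and 9.98 CPM to 34.5, 40.6 and 33.4 CPM. In clone 2 it went from 9.28, 9.03 and 9.97 CPM to 54.9, 55.9 and 55.6 CPM. Every stimulated library lay above every uninduced one, and the stimulated clone 2 libraries lay above all the others, while stimulated clone 1 and WT overlapped. The rise was 3.30-fold in WT (log2 1.72, SE 0.102, adjusted p = 4.69e-15), 4.29-fold in clone 1 (SE 0.105 on the log2 scale, adjusted p = 9.9e-17) and 5.90-fold in clone 2 (log2 2.56, SE 0.102, adjusted p = 2.82e-19). The rise in clone 2 exceeded that in WT by 0.84 on the log2 scale (SE 0.143, adjusted p = 2.59e-05), under the fold threshold. For clone 1 the excess was 0.38 (SE 0.147, adjusted p = 0.0491).

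Clock, the partner of ARNTL, is classically the steady member of the pair. It stood at 64.7, 60.2 and 54.1 CPM in uninduced WT and 52.6, 59.4 and 57.7 CPM in stimulated WT. In clone 1 it moved from 54.2, 60.8 and 58.9 CPM to 88.3, 92.4 and 90.8 CPM. In clone 2 it moved from 59.2, 53.6 and 58.9 CPM to 83.1, 79.9 and 86.8 CPM. The 4 groups other than the stimulated clones overlapped each other, and both stimulated clones lay above them. The WT difference was -0.07 on the log2 scale (95% interval -0.21 to 0.07, adjusted p = 0.369). The increases of 0.64 in clone 1 (SE 0.0673, adjusted p = 1.86e-09) and 0.54 for clone 2 (SE 0.0674, adjusted p = 5.71e-08) passed the adjusted p but not the fold threshold. The difference from the WT response was itself 0.72 (adjusted p = 5.37e-07) in clone 1 and 0.61 (adjusted p = 7.35e-06) in clone 2.

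The 3 Period genes, the repressors whose abundance times the loop, parted from each other. Per1, an immediate target of glucocorticoid and cAMP signals, had 38.2, 43.4 and 49.0 CPM in uninduced WT and 39.5, 42.7 and 38.9 CPM in stimulated WT. Per1 went from 43.1, 40.4 and 48.7 CPM to 61.7, 66.8 and 65.0 CPM in clone 1, and from 41.6, 40.4 and 43.8 CPM to 73.1, 75.9 and 73.0 CPM in clone 2. The uninduced groups and stimulated WT overlapped, and both stimulated clones lay above them. In WT the difference was -0.11 on the log2 scale (95% interval -0.27 to 0.05, adjusted p = 0.222). The increase was 1.46-fold in clone 1 (log2 0.55, SE 0.0776, adjusted p = 5.13e-07) and 1.77-fold in clone 2 (log2 0.82, SE 0.0774, adjusted p = 2e-10), both under the fold threshold.

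Per2 went in opposite directions in WT and the clones. It fell from 4.77, 4.92 and 5.98 CPM to 2.54, 2.68 and 2.07 CPM in WT. It rose from 7.73, 8.68 and 8.64 CPM to 15.7, 21.6 and 19.6 CPM in clone 1, and from 5.64, 5.53 and 6.03 CPM to 14.5, 14.6 and 14.1 CPM in clone 2. No stimulated library overlapped the uninduced libraries of its own genotype. Stimulated WT was the lowest of the 6 groups and stimulated clone 1 the highest, and only uninduced WT and uninduced clone 2 overlapped as neighbours in that order. The WT fall was -1.11 on the log2 scale (SE 0.167, adjusted p = 1.15e-06), and it came to -0.99 when either uninduced or stimulated WT replicate 3 was left out, just under the fold threshold. The rise was 1.19 in clone 1 (SE 0.135, adjusted p = 9.34e-09) and 1.33 for clone 2 (SE 0.14, adjusted p = 1.95e-09). Scaled by library totals alone, the clone 1 rise came to 0.94, where the median of all genes itself shifted by -0.24.

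Per3 showed the deepest fall of the Period genes. In WT it went from 17.5, 19.3 and 19.1 CPM to 0.44, 0.518 and 0.811 CPM, which is 9, 12 and 18 counts. In clone 1 it went from 29.5, 30.9 and 27.5 CPM to 3.73, 3.39 and 3.05 CPM, and in clone 2 from 25.1, 19.7 and 25.7 CPM to 3.58, 1.83 and 2.58 CPM. All stimulated libraries lay below all uninduced ones, and both stimulated clones, which overlapped each other, lay above stimulated WT. The fall was 31.2-fold in WT (log2 -4.96, SE 0.205, adjusted p = 8.49e-19), 8.67-fold in clone 1 (log2 -3.12, SE 0.153, adjusted p = 6.15e-17) and 8.71-fold in clone 2 (log2 -3.12, SE 0.165, adjusted p = 3.26e-16). The upstream run of Per3 printed above is the one with the D-box pair.

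With these changes the makeup of the Period pool shifted. Per1 supplied 73.1% ± 1.13 (SD, n = 3) of the summed Period reads per kb in uninduced WT and 93.8% ± 0.225 in stimulated WT. Per3 supplied 18.4% ± 1.26 before and 0.808% ± 0.297 after stimulation in WT. Per2 went from 8.45% ± 0.416 to 5.42% ± 0.521 in WT, from 11.6% ± 0.794 to 21.4% ± 2.14 in clone 1 and from 9.01% ± 0.254 to 15.5% ± 0.158 in clone 2. In no genotype did the Per2 shares of stimulated and uninduced libraries overlap.

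**Figure D3:**
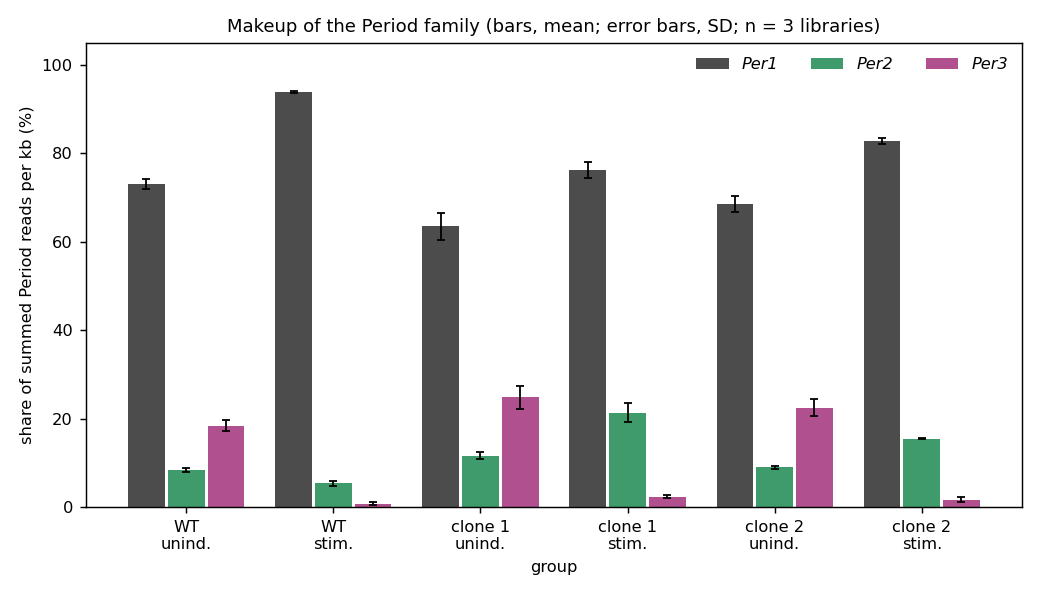
Share of the summed Period reads per kb supplied by Per1, Per2 and Per3 (vertical axis, percent) in each of the 6 groups (horizontal axis); bars are means of 3 libraries and error bars the SD. Per3 takes 18.4% in uninduced and 0.808% in stimulated WT, and Per2 takes 21.4% in stimulated clone 1.

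The Cryptochromes, the main inhibitors of ARNTL:CLOCK, fell in every genotype. Cry1 went from 18.5, 20.1 and 18.5 CPM to 5.28, 5.61 and 5.18 CPM in WT. It went from 12.6, 13.3 and 14.2 CPM to 4.04, 3.94 and 5.51 CPM in clone 1, and from 23.5, 23.1 and 23.0 CPM to 8.18, 5.55 and 7.21 CPM in clone 2. The 3 uninduced groups did not overlap, with clone 2 highest and clone 1 lowest, whereas each stimulated group overlapped its neighbour. The fall was 3.54-fold in WT (log2 -1.83, SE 0.133, adjusted p = 5.62e-13), 2.98-fold in clone 1 (log2 -1.58, SE 0.138, adjusted p = 4.49e-11) and 3.31-fold in clone 2 (log2 -1.73, SE 0.131, adjusted p = 1.6e-12).

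Cry2 went from 19.0, 19.1 and 21.1 CPM to 4.99, 4.88 and 6.17 CPM in WT. It went from 27, 25.3 and 25.6 CPM to 8.46, 7.92 and 5.55 CPM in clone 1, and from 21.9, 20.2 and 20.3 CPM to 5.21, 5.62 and 4.87 CPM in clone 2. Every stimulated library lay below every uninduced one, and neighbouring stimulated groups overlapped. The log2 fold change was -1.88 in WT (SE 0.13, adjusted p = 1.88e-13), -1.83 in clone 1 (SE 0.125, adjusted p = 1.61e-13) and -1.99 for clone 2 (SE 0.134, adjusted p = 1.09e-13). The differences between the clone and WT responses were 0.06 for clone 1 (95% interval -0.31 to 0.42) and -0.11 for clone 2 (-0.50 to 0.28) in Cry2, and 0.25 (-0.14 to 0.64) and 0.10 (-0.28 to 0.48) in Cry1. None of these 4 passed the adjusted p, and the intervals leave room for changes of up to 0.64 on the log2 scale.

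Ciart, the repressor with the 3 E-boxes, was scarce, and its values rest on few counts. Its counts were highest in the uninduced clones and few elsewhere, so its calls are descriptions and support nothing. It had 5, 16 and 27 counts (0.291, 0.838 and 1.03 CPM) in uninduced WT and 2, 4 and 3 counts (0.0978, 0.173 and 0.135 CPM) in stimulated WT. Uninduced clone 1 had 55, 39 and 57 counts and stimulated clone 1 had 0, 6 and 7. Uninduced clone 2 had 110, 62 and 56 counts and stimulated clone 2 had 8, 11 and 18. Each stimulated group lay below the uninduced group of its genotype, and stimulated clone 2 overlapped uninduced WT. The log2 fold change was -2.39 in WT (SE 0.625, adjusted p = 0.00152), -3.75 in clone 1 (SE 0.537, adjusted p = 6.56e-07) and -1.90 for clone 2 (SE 0.459, adjusted p = 7.96e-04).

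Dbp, the E-box-driven output gene often used to read the phase of the clock, showed the largest change of the 10 in every genotype but clone 1, where Ciart, at few counts, was at -3.75. It fell from 35.1, 38.5 and 33.2 CPM to 0.293, 0.993 and 0.316 CPM in WT, the latter being 6, 23 and 7 counts. In clone 1 it fell from 41.5, 40.3 and 39.6 CPM to 2.82, 3.39 and 3.1 CPM, and in clone 2 from 38.4, 36.9 and 38.0 CPM to 0.56, 0.915 and 0.421 CPM. Uninduced levels lay within 33.2 to 41.5 CPM in all genotypes. After stimulation the clone 1 libraries stood above all of clone 2 and WT, which overlapped. The fall was 64.5-fold in WT (log2 -6.01, SE 0.19, adjusted p = 1.07e-21), 12.9-fold in clone 1 (log2 -3.69, SE 0.143, adjusted p = 1.85e-19) and 60.0-fold in clone 2 (log2 -5.91, SE 0.195, adjusted p = 3.2e-21). Without stimulated WT replicate 2, the library at 0.993 CPM, the WT fall was 113-fold (log2 -6.82, SE 0.203, adjusted p = 9e-22). In the annotation 18% of the exon bases of Dbp lie opposite exons of Sphk2, which had 28.2 CPM in stimulated WT and 29.9 CPM in uninduced WT. Since the strand setting of the counting is not given, a few of the remaining Dbp counts could be Sphk2 reads.

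Tef, the other PAR bZIP activator, was far more abundant and fell less. It went from 179, 167 and 153 CPM to 23.4, 19.9 and 20.6 CPM in WT. It went from 324, 304 and 312 CPM to 88.3, 89.7 and 87.7 CPM in clone 1, and from 210, 208 and 218 CPM to 41.2, 41.0 and 43.8 CPM in clone 2. No group overlapped another, and at either state clone 1 was highest and WT lowest. The fall was 7.81-fold in WT (log2 -2.97, SE 0.0637, adjusted p = 9.6e-26), 3.54-fold in clone 1 (log2 -1.82, SE 0.0567, adjusted p = 8.51e-22) and 5.04-fold in clone 2 (log2 -2.33, SE 0.0606, adjusted p = 9.2e-24).

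Ratios within a library do not depend on how libraries are scaled. The log2 ratio of Dbp to Arntl reads per kb was 3.08 ± 0.20 (SD, n = 3) in uninduced WT and -4.95 ± 0.99 in stimulated WT. It went from 3.61 ± 0.26 to -2.21 ± 0.10 in clone 1 and from 3.33 ± 0.06 to -5.20 ± 0.56 in clone 2. Dbp thus went from above to below Arntl in all genotypes, and the stimulated clone 1 libraries (-2.28 or higher) did not overlap those of WT (-5.63 to -3.81). For Per3 to Arntl the stimulated ratio was -6.29 ± 0.52 in WT, -3.77 ± 0.19 in clone 1 and -4.79 ± 0.50 in clone 2, from 0.46 ± 0.17, 1.46 ± 0.32 and 0.96 ± 0.16 in the uninduced libraries.

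**Figure D4:**
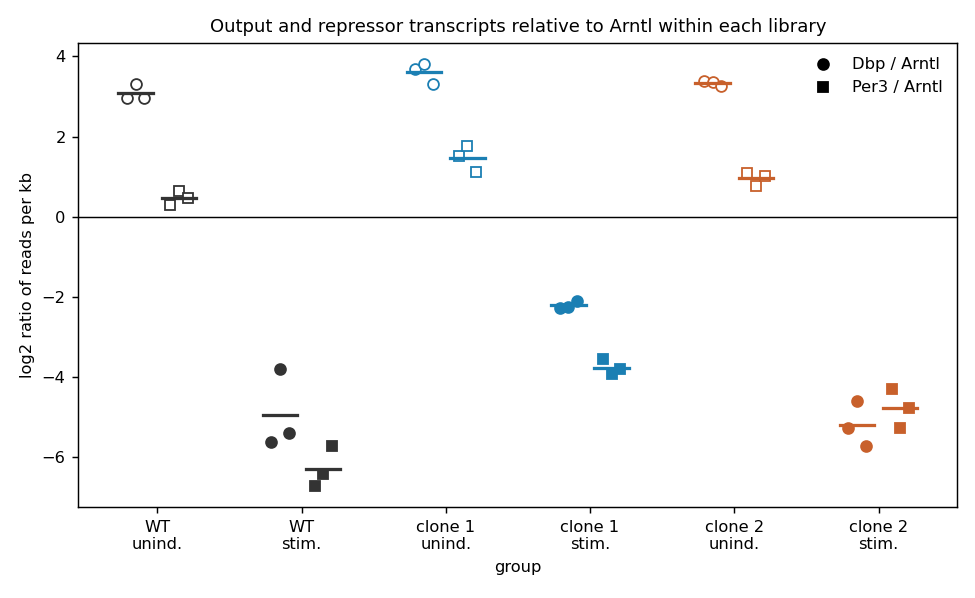
Log2 ratio of Dbp (circles) and Per3 (squares) to Arntl reads per kb in each library (vertical axis) by group (horizontal axis); open symbols are uninduced, filled symbols stimulated, and lines are means of 3. All uninduced ratios lie above 0 and all stimulated ratios below it, with stimulated clone 1 highest among the stimulated groups for both genes.

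Before stimulation Ciart was the 1 gene of the 10 past both thresholds in clone 1, where it was higher than in WT (log2 1.81, SE 0.45, adjusted p = 0.00114), with none lower, against 6.32% and 8.73% of all tested genes. It was likewise the 1 gene past them in clone 2 (log2 1.91, SE 0.446, adjusted p = 6.09e-04), with none lower, against 5.54% and 9.56%. All 3 libraries of each clone lay above all 3 WT libraries for Ciart, but the WT libraries had only 5, 16 and 27 counts. None of the other 9 genes passed both thresholds. Haematopoietic markers moved the same way, summing to 5.64 to 6.91 CPM in uninduced clone 1, 5.73 to 6.2 CPM in uninduced clone 2 and 0.64 to 1.99 CPM in uninduced WT, through Lyz2, with Ptprc at 0 in every library. Epithelial markers summed to 2.81 to 3.41 CPM in uninduced clone 2 and 0.697 to 2.85 CPM in uninduced clone 1, against 0.472 to 1.34 CPM in uninduced WT, with Cdh1 at 2.92, 0.988 and 0.723 CPM. The part of both marker lists in the Ciart difference was not tested.

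Smaller differences passed the adjusted p alone, in 7 of the 10 genes for clone 1 and 4 for clone 2, where 53.5% and 53.2% of all genes did. Tef was higher by 0.91 in clone 1 (SE 0.0549) and by 0.35 in clone 2 (SE 0.0547). On chromosome 15, which carries Tef, the median of 407 genes was itself 0.46 higher in each uninduced clone. Cry1 was lower in clone 1, at -0.51 (SE 0.123), where the 518 genes of chromosome 10 had a median of -0.41, and higher by 0.29 in clone 2 (SE 0.118), where that median was 0.07. The part of these chromosome-wide shifts in the 2 genes was not tested. Per2 (0.66, SE 0.147) and Per3 (0.65, SE 0.129) were also higher in clone 1.

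After stimulation the clones held more of several of the transcripts that had fallen in WT cells. Of the 10 genes, 4 were higher in clone 1 than in WT (Per2, Per3, Dbp and Tef) and none lower, against 9.42% and 9.6% of all genes. In clone 2, 3 were higher (Per2, Per3 and Ciart) and none lower, against 7.95% and 8.94%, which leaves 2 where the stimulated clone 2 and WT libraries are fitted on their own and Ciart is not tested. Per2 was 7.80-fold higher in clone 1 (log2 2.96, SE 0.154, adjusted p = 1.96e-16) and 5.90-fold higher in clone 2 (log2 2.56, SE 0.157, adjusted p = 1.23e-14). Per3 was 5.66-fold higher in clone 1 (log2 2.50, SE 0.248, adjusted p = 5.3e-10) and 4.52-fold higher in clone 2 (log2 2.18, SE 0.268, adjusted p = 4.44e-08). Both genes lay higher in all 6 stimulated KO libraries than in any stimulated WT library.

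**Figure D5:**
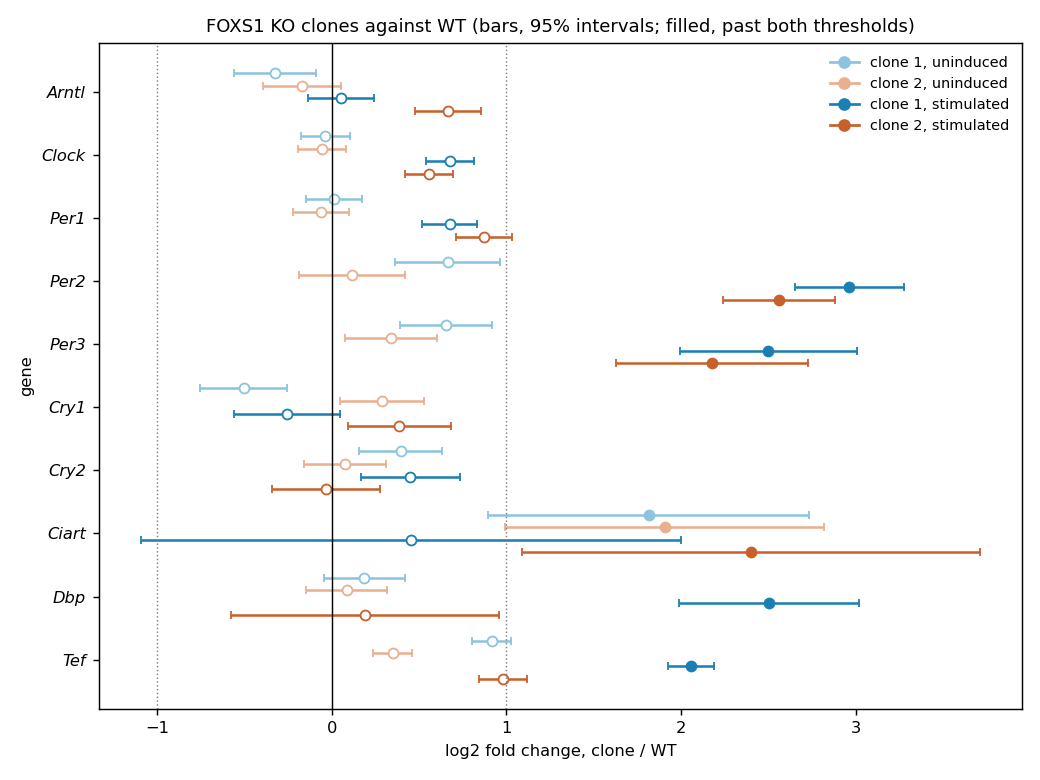
Log2 fold change of each gene (rows) in the FOXS1 KO clones against WT (horizontal axis), with 95% intervals; pale points are uninduced and dark points stimulated comparisons, filled where both thresholds were passed. Ciart is the gene filled in the uninduced comparisons, and Per2 and Per3 lie above 2 in both stimulated comparisons.

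The output genes differed from WT by more in stimulated clone 1 than in stimulated clone 2. Stimulated clone 1 had 5.68-fold more Dbp than WT (log2 2.50, SE 0.252, adjusted p = 6.96e-10), whereas the clone 2 difference was 0.19 (95% interval -0.58 to 0.96, adjusted p = 0.703). Without stimulated WT replicate 2, the WT library with the highest Dbp level, the difference was 10.1-fold in clone 1 (log2 3.34, SE 0.27) and 1.02 in clone 2 (SE 0.389, adjusted p = 0.0486), which passed both thresholds. Tef was 4.16-fold higher in stimulated clone 1 (log2 2.06, SE 0.0637, adjusted p = 6.25e-22) and 1.97-fold higher in clone 2 (log2 0.98, SE 0.067, adjusted p = 1.62e-13), the latter just under the fold threshold and at 1.05 without stimulated WT replicate 1. The chromosome 15 medians were 0.45 and 0.43 in these comparisons. Among the stimulated groups, adipocyte markers were highest in clone 1, as Dbp was, summing to 14.1 to 17.9 CPM. They did so through Plin1 (7.78 ± 1.71 CPM) and Cidec (7.56 ± 1.03 CPM), with Adipoq at 0.206 CPM and Lep at 0. In every other group they summed to at most 1.18 CPM, also in the uninduced groups, where Dbp was highest. The part of these markers in the Dbp difference was not tested.

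Compared with each other, the uninduced clones differed in none of the 10 genes at both thresholds, against 4.89% of all genes higher in clone 1 and 3.78% lower, although 5 passed the adjusted p alone (Tef, Cry2, Per3, Per2 and Cry1), where 42.2% of all genes did. After stimulation 2 were higher in clone 1 (Dbp and Tef) and 1 lower (Ciart), against 5.5% and 4.48%. Dbp was 4.98-fold higher (log2 2.32, SE 0.265, adjusted p = 1.96e-08) and Tef 2.11-fold higher (log2 1.08, SE 0.0609, adjusted p = 5.52e-15) in clone 1. Ciart was lower, at -1.95 on the log2 scale (SE 0.603, adjusted p = 0.00874), a call on few counts that was lost without stimulated clone 2 replicate 3, the library with 18 counts, and Ciart was not tested in a fit of these 6 libraries alone, which leaves the 2 others. Arntl, at -0.61 (SE 0.0917, adjusted p = 2.05e-06), and Cry1, at -0.64 (SE 0.148, adjusted p = 6.45e-04), were lower in stimulated clone 1 below the fold threshold.

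Tests of the difference in response asked whether stimulation changed a gene by another amount in a clone than in WT. For clone 1, 4 of the 10 genes had a response shifted upward (Per2, Per3, Dbp and Tef) and none downward, against 5.34% and 3.46% of all genes. For clone 2 it was 2 upward (Per2 and Per3) and none downward, against 4.89% and 2.96%. Per2 had the largest shift in clone 2, at 2.44 (SE 0.217, adjusted p = 2.29e-10), and was at 2.30 in clone 1 (SE 0.214, adjusted p = 4.98e-10). Dbp was at 2.32 in clone 1 (SE 0.281, adjusted p = 9.55e-08) and at 0.10 in clone 2 (95% interval -0.69 to 0.90, adjusted p = 0.89). Without stimulated WT replicate 2 these Dbp shifts came to 3.15 (SE 0.295, adjusted p = 8.45e-10) and 0.93 (SE 0.401, adjusted p = 0.123). The shift of Per3 was 1.85 in clone 1 (SE 0.288) and 1.84 in clone 2 (SE 0.301). That of Tef was 1.14 in clone 1 (SE 0.0837) and 0.63 in clone 2 (SE 0.0865, adjusted p = 8.46e-07). Per1 was shifted by 0.66 and 0.93 under the fold threshold. Ciart, at -1.36 in clone 1 (95% interval -3.26 to 0.54) and 0.50 in clone 2 (-1.06 to 2.05), could not be resolved at its depth. Both sets of comparisons share the WT libraries and are not independent of each other.

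The wider clock was read from a further 18 genes, of which 17 were tested and Hlf fell below the count filter. On stimulation 2 rose (Rorb and Npas2) and 3 fell (Nr1d2, Usp2 and Fbxl21) in WT, where 6.25% and 13.6% of all tested genes did. Npas2 reached the count filter only through stimulated WT, and Rorb had nearly all its counts there and in clone 2. Their rises, that of Rorb in clone 2 included, are descriptions and support nothing, and Fbxl21 rests on few counts. In clone 1, 1 rose (Nfil3) and 2 fell (Nr1d2 and Arntl2), against 5.95% and 10.7%. In clone 2, 2 rose (Nfil3 and Rorb) and 2 fell (Nr1d2 and Arntl2), against 6.46% and 11.2%. Nr1d2, which encodes the repressor REV-ERBβ, fell in all 3, at -1.31 in WT (SE 0.102), -1.19 in clone 1 and -1.64 in clone 2. Its paralogue Nr1d1, the REV-ERBα gene, did not follow, at 0.85 in WT, 0.59 in clone 1 and -0.50 in clone 2 on the log2 scale, all under the fold threshold. In stimulated clone 2 Nr1d1 had 20.8 ± 0.795 CPM against 73.6 ± 4.83 CPM in stimulated WT and 94.1 ± 1.94 CPM in stimulated clone 1 (log2 -1.82 against WT, adjusted p = 1.04e-18). Among the stimulated groups clone 2 thus had the lowest Nr1d1 and the highest Arntl. In WT and clone 1, however, both genes were higher after stimulation. Uninduced clone 2 also had less Nr1d1 than uninduced WT (log2 -0.47, under the fold threshold), with Arntl at -0.17. Nfil3, the D-box repressor E4BP4, rose in clone 1 (log2 2.19) and clone 2 (2.18) and was at 0.86 in WT, under the fold threshold, and the difference in response passed both thresholds in both clones (1.33 and 1.32).

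Usp2, a clock-driven deubiquitinase gene, fell in WT (log2 -1.72) and was at -0.54 and -0.61 in the clones, and its difference in response passed both thresholds, at 1.18 and 1.10. Bhlhe41, a helix-loop-helix repressor acting on E-boxes, was higher in uninduced clone 2 (log2 1.04) and stood at 0.94 in uninduced clone 1 (adjusted p = 1.04e-08), under the fold threshold. Arntl2, the paralogue of Arntl, fell in clone 1 (-1.33) and clone 2 (-1.45) and was at -0.82 in WT (adjusted p = 0.0119), under the fold threshold, and its differences in response, at -0.51 and -0.64, did not pass the adjusted p. Scarce genes are given by their levels. Npas2, a paralogue of Clock, had 0.688 CPM in stimulated WT, 0.0556 CPM in uninduced WT and no count in any KO library. Rorb had 1.63 CPM in stimulated WT, 1.76 in stimulated clone 2, 0.0756 in stimulated clone 1, 0.676 in uninduced clone 2 and no count in the other groups. Fbxl21, a ubiquitin ligase gene of the Cryptochromes, had 1.11, 2.78 and 0.876 CPM in uninduced WT and at most 0.549 CPM as a mean in every other group. The median log2 fold change of the 17 genes was 0.29 in WT, -0.11 in clone 1 and -0.01 in clone 2, against -1.85, -1.70 and -1.81 for the 10 core genes.

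Readouts of the components of DMII differed between genotypes beside the Period genes. Of 4 glucocorticoid targets, Fkbp5 rose in WT (log2 3.08), clone 1 (5.90) and clone 2 (5.72), whereas Tsc22d3 fell in WT (-1.69) and rose in clone 1 (2.01) and clone 2 (1.28), Klf9 was at -0.12 in WT (95% interval -0.27 to 0.02) and rose in the clones (2.91 and 1.71), and Zbtb16 had at most 1.72 CPM in any group, its mean in stimulated clone 2. Of 4 cAMP-responsive genes, Nr4a1 and Sik1 fell in WT (-1.41 and -1.33), where Per2 also fell, Sik1 rose in clone 1 (1.31), Nr4a1 was at 0.41 and 0.97 in the clones, Pde4d rose in all 3 (1.87, 2.68 and 2.35), and Crem rose past both thresholds in clone 2 (1.00) and was at 0.53 in WT and 0.63 in clone 1, under the fold threshold. Starting levels differed as well. Against uninduced WT, Klf9 was at -1.76 in clone 1 and -1.19 in clone 2, past both thresholds. In uninduced clone 2 Tsc22d3 (1.17), Pde4d (-2.10) and Crem (-1.45) also passed both, whereas Fkbp5, Nr4a1 and Sik1 did so in neither clone. After stimulation Klf9 exceeded WT by 1.27 in clone 1 and by 0.64 in clone 2, the latter under the fold threshold. Fkbp5 (2.52 and 1.71), Tsc22d3 (2.76 and 4.14) and Nr4a1 (2.04 and 2.22) exceeded WT past both thresholds in both clones. Sik1 was at 2.12 and 0.96, the latter under the fold threshold. Pde4d (-0.12 and -1.62) and Crem (-0.42 and -0.98) went the other way, past both thresholds only for Pde4d in clone 2. Zbtb16, on few counts, was at -0.49 and 3.3. The part of these levels and signals in the Period differences was not tested.

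Among the 10059 genes averaging 5 CPM or more, the patterns most like that of Dbp over the 18 libraries were those of Adh1, Islr and Akr1c14, with root mean square differences of centred log2 CPM of 0.587, 0.735 and 0.773, against a median of 2.75. Adh1, an alcohol dehydrogenase gene, went from 27.5 ± 6.03 CPM to 0.137 ± 0.00873 CPM in WT and from 21.8 ± 1.48 CPM to 2.07 ± 0.892 CPM in clone 1. For Arntl they were Enpp1, Ltbp2 and Fbln5, at 0.185, 0.212 and 0.247 against a median of 1.12. Ltbp2 and Fbln5 encode extracellular matrix proteins, and Ltbp2 went from 507 ± 16.5 CPM to 1476 ± 50.7 CPM in WT and from 461 ± 16.4 CPM to 1871 ± 13.3 CPM in clone 2. These likenesses are descriptions over libraries that share their treatments.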

How the data were processed

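Bulk RNA-seq of 18 libraries was analysed from the gene counts that the authors deposited. Per the study's methods and processing notes, poly(A) RNA was sequenced as paired-end reads on an Illumina instrument and mapped to GRCm38/mm10 with HISAT2. Which counting program, annotation and strand mode were used is not given in the sources used here. Gene coordinates and exon lengths of the 10 genes in the deposited table equal those of GENCODE M21, which gave exon overlaps.

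Raw counts were fitted in edgeR 4.0.16 (R 4.3.3) with TMM factors, filterByExpr (minimum count 10) and 1 mean per group over all 6 groups, with robust quasi-likelihood tests, run first on simulated data. Calls needed a Benjamini-Hochberg adjusted p under 0.05 over 14317 genes and a log2 fold change beyond 1. SE and 95% intervals derive from the fold change and its F statistic. CPM use library totals times TMM factors. Within groups, libraries varied beyond sampling noise. Alternatives included DESeq2 1.42.0.

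Named genes were the 10 core genes, all of them, genes of the listed sets past both thresholds in any of 11 comparisons, Foxs1, and the 3 nearest patterns to Dbp and Arntl. Sphk2 was named for its overlap. Of the listed genes, 1 is not reported here. The members and lists were chosen with earlier results of these data known.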

Additional observations from a re-analysis of the deposited data

Results flagged for a closer look

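Per2, Per3, Dbp and Tef are listed here because the test of the difference in response between a KO clone and WT passed both thresholds. In clone 1 the response exceeded that of WT by 2.30 for Per2, 2.32 for Dbp, 1.85 for Per3 and 1.14 for Tef on the log2 scale (adjusted p = 4.98e-10, 9.55e-08, 6.69e-06 and 2.67e-12, edgeR quasi-likelihood test), and the Dbp value was 3.15 without stimulated WT replicate 2. In clone 2 it exceeded that of WT by 2.44 for Per2 and 1.84 for Per3 (adjusted p = 2.29e-10 and 1.47e-05). Per2 is the one of these whose direction differed, lower after stimulation in WT and higher in both clones. Its stimulated and uninduced libraries did not overlap in any genotype. The groups of 3 libraries were too small for a test of single outlying libraries.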

How the results depend on the processing

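Of 1546 alternative values of the log2 fold changes, 1539 kept their side of the thresholds, 4 lost a call, 3 gained one and 0 reversed a call. Among the 1539, 28 changed sign, none of them a call in either setting. The calls lost were Per2 in WT (without either of 2 libraries) and in clone 1 (library totals only, 0.94), and Ciart between stimulated clones (-1.59). Those gained were Tef (1.05) and Dbp (1.02) in stimulated clone 2 and Per1 in the clone 2 difference in response (1.01, without uninduced WT replicate 1). With no fold threshold, the genes passing were 7 (clone 1) and 4 (clone 2) against WT uninduced, 7 and 8 stimulated, 5 and 8 between the clones uninduced and stimulated, and 7 and 6 for the differences in response, in place of 1, 1, 4, 3, 0, 3, 4 and 2. Over all genes that setting called 4463 to 8693 in place of 1124 to 2849. Leaving out each library gave 7 to 8 genes for the WT response, 8 to 8 for each clone response, 1 to 1 for each uninduced comparison with WT, 4 to 4 and 3 to 4 stimulated, 0 to 0 and 2 to 3 between the clones, and 4 to 4 and 2 to 3 for the differences in response. Replicate numbers did not pair the libraries (correlations of same-numbered deviations -0.041 to 0.05 over 45 pairs), and with the replicate block the counts were 8, 8, 8, 1, 1, 4, 3, 0, 3, 4 and 2, with no call changed. TMM factors moved with treatment (1.07 to 1.11 uninduced, 0.869 to 0.95 stimulated); library totals alone shifted the median response of all genes by -0.22 in WT, -0.24 in clone 1 and -0.29 in clone 2, and put WT Clock at -0.29 and Per1 at -0.33. Depth limits Ciart, at 0 to 110 counts per library: with only the compared groups fitted it was not tested in the WT response, in either stimulated comparison with WT or between the stimulated clones, where 7, 4, 2 and 2 of the other 9 genes passed.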

Other observations

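Further ratios of reads per kb within a library describe pairs of related genes. The log2 ratio of Cry1 to Cry2 was 0.87 ± 0.13 (SD, n = 3) in uninduced WT, -0.04 ± 0.13 in uninduced clone 1 and 1.08 ± 0.05 in uninduced clone 2, and the clone 1 libraries did not overlap those of the other uninduced groups. Tef exceeded Dbp by 0.83 ± 0.12 on the log2 scale in uninduced WT, 1.56 ± 0.03 in uninduced clone 1 and 1.09 ± 0.03 in uninduced clone 2, and by 4.16 ± 1.08, 3.45 ± 0.12 and 4.74 ± 0.61 after stimulation. Clock exceeded Arntl by 1.63 ± 0.15 in uninduced WT and stood at -0.17 ± 0.14 in stimulated WT, 0.46 ± 0.13 in stimulated clone 1 and -0.28 ± 0.06 in stimulated clone 2.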
